A study of Mus musculus with 208 samples.

Results

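The 10 genes described here are known for switching on within minutes of neuronal firing: Fos, Fosb, Fosl2, Junb, Egr1, Egr3, Nr4a1, Npas4, Ier2 and Arc. They were taken by their symbols, and are 10 of the 46403 genes listed in each region's count table. All 10 were found in each of the 4 brain regions and passed the filter on low counts there. The study asked whether morphine before and after birth alters how the adult brain responds to an immune challenge. Nuclear RNA was measured in 208 libraries from 71 wild-type C57BL/6NTac mice, 107 libraries from females and 101 from males. Dams received morphine sulfate from an implanted pump, at 10 mg/kg per day, or saline. Their pups were moved to drug-naive surrogate mothers and given morphine at 10 mg/kg under the skin, or saline, 2 times a day until postnatal day 14. As adults the offspring were injected with lipopolysaccharide (LPS), a bacterial cell wall component that sets off inflammation, or with saline, and tissue was punched out 2 h later. The 4 conditions are therefore SAL-SAL (saline-reared, saline-injected), SAL-LPS, MOR-SAL (morphine-reared, saline-injected) and MOR-LPS. In that order they held 11, 12, 14 and 14 libraries in the hypothalamus, 13, 14, 12 and 16 in the hippocampus, 10, 10, 12 and 16 in the prefrontal cortex (PFC), and 13, 15, 8 and 18 in the striatum.

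Immediate early genes are transcribed from promoters that stand ready in resting neurons, so their RNA appears quickly after synaptic input and without new protein synthesis. Fos, Fosb, Fosl2 and Junb encode subunits of AP-1, a dimeric transcription factor. Egr1 and Egr3 encode zinc finger transcription factors, Nr4a1 an orphan nuclear receptor, Npas4 a neuron-restricted factor tied to calcium entry, Ier2 a small nuclear protein, and Arc a synaptic protein that promotes the removal of glutamate receptors. Their RNA is short-lived, so 1 time point records recent activity of a cell and not its history.

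The 200 bases before the start of transcription are shown for 5 members whose promoter held letters of a cAMP response element, the site through which calcium and cAMP signals reach many of these genes. Capitals mark the core of that element (TGACG, or CGTCA where it lies on the other strand) and the letters TATAA of a TATA box, and every sequence reads 5′ to 3′ on the strand of the gene. The sequences are from RefSeq on GRCm38.p6. They lie at chr12:85473690-85473889 on the plus strand for Fos, chr7:19310046-19310245 on the minus strand for Fosb, chr8:84978749-84978948 on the minus strand for Junb, chr15:101266646-101266845 on the plus strand for Nr4a1 and chr19:4989972-4990171 on the minus strand for Npas4.
Fos: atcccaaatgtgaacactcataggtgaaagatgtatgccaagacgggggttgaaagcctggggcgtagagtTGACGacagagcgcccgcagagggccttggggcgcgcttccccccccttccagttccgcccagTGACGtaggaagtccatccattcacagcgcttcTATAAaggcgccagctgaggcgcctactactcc
Fosb: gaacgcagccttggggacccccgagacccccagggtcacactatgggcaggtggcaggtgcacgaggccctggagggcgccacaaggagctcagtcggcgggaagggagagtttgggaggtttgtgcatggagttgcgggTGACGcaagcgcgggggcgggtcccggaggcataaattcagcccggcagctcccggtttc
Junb: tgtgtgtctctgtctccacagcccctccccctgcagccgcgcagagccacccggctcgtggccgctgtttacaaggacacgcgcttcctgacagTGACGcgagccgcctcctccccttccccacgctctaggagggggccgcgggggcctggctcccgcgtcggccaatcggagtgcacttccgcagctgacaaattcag
Nr4a1: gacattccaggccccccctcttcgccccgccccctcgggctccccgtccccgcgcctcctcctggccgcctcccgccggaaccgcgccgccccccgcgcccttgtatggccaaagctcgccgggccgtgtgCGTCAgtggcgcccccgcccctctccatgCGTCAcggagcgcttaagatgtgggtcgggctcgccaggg
Npas4: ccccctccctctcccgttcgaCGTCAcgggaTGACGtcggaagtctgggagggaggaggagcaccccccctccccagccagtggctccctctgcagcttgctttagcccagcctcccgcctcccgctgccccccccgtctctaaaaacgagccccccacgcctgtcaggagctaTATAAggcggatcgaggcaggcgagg
The core stood 2 times in each of the Fos, Nr4a1 and Npas4 windows and 1 time in those of Fosb and Junb, and TATAA stood in those of Fos and Npas4, at positions -33 to -29 and -26 to -22 from the start. In Fos the cores began at positions -129 and -66, and in Npas4 at -179 and -169. Of 32851 mouse promoters searched over the same length on both strands, 15.7% held the core and 18.5% held TATAA. The full 8-letter element TGACGTCA, which contains the core on both strands, was found in 1.47% of promoters and in none of the windows shown, and the CArG box, which serum response factor binds, in 1.18% and again in none of them. The window of Fosl2 was searched too and held none of these motifs. Only the 200 bases before the start were searched, so a site farther upstream would be missed. The promoters of Egr1, Egr3, Arc and Ier2 were not searched here.

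Each library was made from a pool of nuclei sorted for NeuN, a neuronal nuclear protein. In such bulk samples, fewer cells that express a gene and less RNA per cell cannot be told apart. The leading number of a replicate label is shared by several animals, which are called a set here, since the labels do not say whether it marks a litter or a cage. There were 18 sets, 8 of saline-reared and 10 of morphine-reared animals, and 17 of the 18 held animals of 1 sex. P-values measure the spread between animals, and animals of a set entered as separate. Total counts ran from 7673 to 35077048 in the hypothalamus, 227025 to 24071488 in the hippocampus, 3056648 to 21988203 in the PFC and 5954700 to 92945090 in the striatum. In 8 libraries the total was under 0.5 times the median of the region, and in 9 the Y-linked genes went against the labelled sex. Neuronal markers were high throughout, but regional markers did not set every region apart: the summed level of 6 markers of striatal medium spiny neurons had a median of 1142 CPM (counts scaled to the library total) in the PFC and 1123 CPM in the striatum. The summed level of 5 markers of thalamic neurons was highest in the striatum, at a median of 3522 CPM, against 1920.1 CPM for the PFC, 1259 CPM for the hippocampus and 287 CPM for the hypothalamus. Of 12491 genes whose hypothalamic median reached 5 CPM, 1480 (11.8%) were listed at 0 throughout the hippocampus, PFC and striatum. The part of these facts in the regional differences given next was not tested.

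In mice that received saline at both times, the immediate early genes stood highest in the PFC. Of the 10 members, 9 had their highest median there, and the other, Fos, was level between the hypothalamus and the PFC. Compared with the striatum, all 10 members had a fitted difference toward the PFC, with a median over the members of 1.65 on the log2 scale. Of the 10, 8 passed the test between regions given below, where 17% of all genes tested passed in either direction. The levels below are CPM normalized over all 208 libraries together, and each is a median with the lowest and highest library.

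Among the AP-1 subunits, Fos differed least. Its median was 16.2 normalized CPM in the hypothalamus (0 to 37.6), 10.9 in the hippocampus (0.153 to 78.6), 16.1 in the PFC (0.599 to 58.7) and 6.08 in the striatum (2.62 to 28.9), and the ranges of all regions overlapped. Junb, 1 of the Jun family proteins with which Fos proteins pair to bind DNA, spread further: 10.4 in the hypothalamus (1.10 to 46.9), 25.8 in the hippocampus (12.8 to 118), 47.0 in the PFC (15.4 to 100.05) and 6.91 in the striatum (2.69 to 29.5). Junb was 4.83-fold higher in the PFC than in the striatum (log2 difference 2.27 ± 0.474 SE, adjusted p = 0.000196) and 3.22-fold higher in the hippocampus than in the striatum (1.69 ± 0.447, adjusted p = 0.00458), both by edgeR's quasi-likelihood test with Benjamini-Hochberg adjustment, as in all tests across genes here. Exons of Junb overlap those of Prdx2 on the opposite strand, and how strand was used in counting is not given in the sources used here, so its counts can hold reads of that gene. Fosl2 was also highest in the PFC, at a median of 33.3 in the PFC, 19.5 in the hippocampus, 13.5 in the striatum and 8.56 in the hypothalamus. Fosb was near the limit of detection, at medians of 0.569 to 0.883 outside the PFC and 2.13 within it.

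Both zinc finger genes had the same order of medians over the regions. Egr1 had a median of 227.2 normalized CPM in the PFC (104 to 576), 83.2 in the hippocampus (27.5 to 524), 55.2 in the striatum (27.3 to 437) and 47.4 in the hypothalamus (34.1 to 56.2). Every PFC library thus lay above every hypothalamic one, while the highest libraries of the hippocampus and the striatum lay inside the PFC range. Egr3, which shares the Egr1 binding site, was 21.9 in the PFC (10.0 to 55.5), 9.11 in the hippocampus (5.29 to 21.6) and 6.55 in the striatum (1.90 to 29.9). In the hypothalamus Egr3 was close to absent, with a median of 0.259 normalized CPM, and its highest library, at 10.5, only just reached the lowest PFC library. The hypothalamus was lower than the PFC by 2.57 ± 0.417 on the log2 scale for Egr1 (adjusted p = 5.15e-08) and by 4.16 ± 0.729 for Egr3 (adjusted p = 4.6e-07).

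Nr4a1 and Arc behaved like Egr1. Nr4a1 had a median of 219.6 normalized CPM in the PFC (80.8 to 294), against 61.2 in the hippocampus, 59.5 in the striatum and 40.8 in the hypothalamus (12.8 to 58.5). Arc had medians of 126.5 in the PFC (70.5 to 314), 72.4 in the hippocampus (23.2 to 278), 40.1 in the striatum (11.5 to 82.7) and 25.1 in the hypothalamus (0 to 59.6). For both genes, as for Egr1, no PFC library fell as low as the highest hypothalamic library. The share of all genes that lie apart in this way was not counted, and 42.8% of all genes tested were called between these regions. Npas4, a factor made almost only in neurons, had a median of 46.6 in the PFC and 11.4 to 16.5 in the other regions. Ier2 was low throughout, at 7.50 in the PFC, 4.95 in the hippocampus, 2.96 in the hypothalamus and 0.905 in the striatum.

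Of the 60 tests of a member between a pair of regions, 29 passed an adjusted p of 0.05. The PFC was higher than the striatum for 8 of 10 members (all but Fos and Fosb) where 17% of all genes tested passed in either direction, and higher than the hippocampus for 4 (Fosb, Egr1, Nr4a1 and Npas4) where 18.5% passed. The hypothalamus was lower than the PFC for 7 members (all but Fos, Fosb and Ier2, background 42.8%), lower than the hippocampus for 6 (Fosl2, Junb, Egr1, Egr3, Nr4a1 and Arc, background 40.4%) and lower than the striatum for 2 (Egr1 and Egr3, background 37.9%). The hippocampus was higher than the striatum for Junb and Ier2 (background 12.4%). The median difference over members was -1.97 for the hypothalamus against the PFC and 1.65 for the PFC against the striatum, where the medians over all genes tested were 0.08 and -0.11. All 10 members were below 0 in the first and above 0 in the second, except that 1 member was above 0 in the first with the animal as a replicate block, and 1 when libraries were scaled by total counts alone, which moved the median of all genes to 0.35. Since the shares of all genes called between the hypothalamus and the other regions were near 40%, the counts of 6 and 2 members there are near or below that background. The same animal often gave several regions. With the animal as a replicate block, 1 pair of regions at a time and 35 to 42 animals a pair, the same 8 members were higher in the PFC than in the striatum, the same 7 lower in the hypothalamus than in the PFC and the same 6 lower in the hypothalamus than in the hippocampus. That block ended 3 calls: Ier2 between the hippocampus and the striatum (adjusted p = 0.0944, edgeR), Fosb between the hippocampus and the PFC (adjusted p = 0.789) and Egr1 between the hypothalamus and the striatum (adjusted p = 0.209). It added 2 calls between the hypothalamus and the striatum, Fos higher in the hypothalamus (1.10 ± 0.378, adjusted p = 0.0203) and Fosl2 lower (-1.24 ± 0.477, adjusted p = 0.0392).

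Per kilobase of exon, Nr4a1, Egr1 and Arc led in every region, in an order that varied. In the PFC the median was 62.6 normalized CPM per kb for Nr4a1, 50.7 for Egr1, 41.4 for Arc, 20.4 for Junb, 11.3 for Npas4 and 6.84 for Fos, followed by Egr3 (4.98), Ier2 (4.93), Fosl2 (3.44) and Fosb (0.341). In the hypothalamus Nr4a1 (11.6), Egr1 (10.6) and Arc (8.20) led in the same order, Fos came next at 6.89, and Egr3 was last at 0.0589. In the hippocampus Arc (23.7) stood before Egr1 (18.6) and Nr4a1 (17.4), and in the striatum the order was Nr4a1 (16.9), Arc (13.1) and Egr1 (12.3). No test between genes was run, and neighbours in these orders, such as Egr3 and Ier2 in the PFC, lie well inside the spread over libraries given above.

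**Figure D1:**
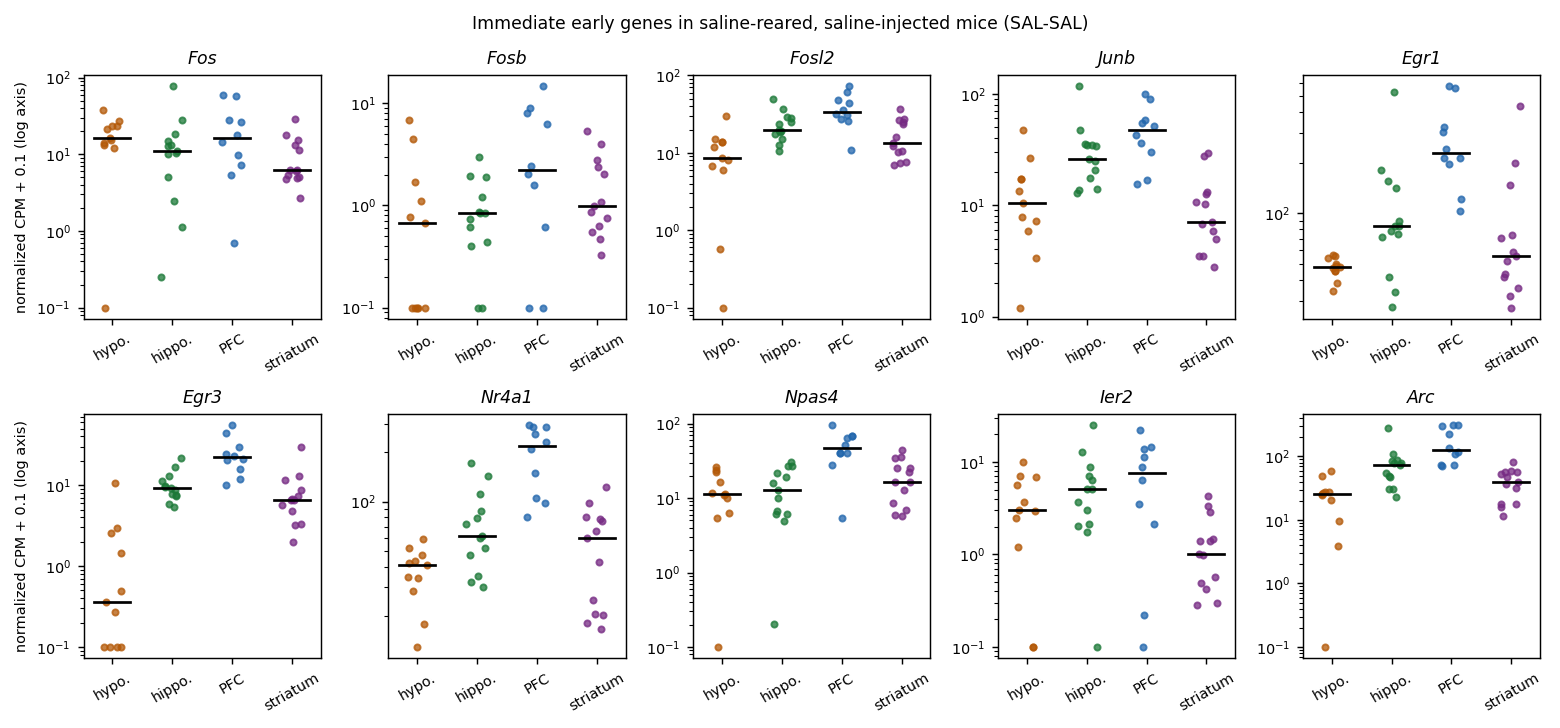
Normalized CPM of each immediate early gene in SAL-SAL mice, on a log axis after adding 0.1, in the hypothalamus (hypo., n = 11), hippocampus (hippo., n = 13), prefrontal cortex (PFC, n = 10) and striatum (n = 13). Points are libraries and bars are medians: the PFC has the highest median for all genes but Fos. Egr1, Nr4a1 and Arc do not overlap between the PFC and the hypothalamus, regions between which 42.8% of all genes tested were called.

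Few differences in the immediate early genes passed the test 2 h after LPS. In saline-reared mice, 0 of 10 members passed the test in any region, with 2 unadjusted p-values under 0.05 among 40 tests, both in the PFC. In morphine-reared mice, 1 of 40 passed: Arc in the hypothalamus, which was 3.2-fold higher after LPS (log2 1.68 ± 0.437, adjusted p = 0.0142). DESeq2, run as an alternative, also called Arc alone. Several other alternatives ended that call, as given below. For all 10 members and in all 4 regions, the libraries of LPS-injected and saline-injected animals overlapped. The same count was not made over all genes, so it sets the members apart from no other genes.

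The shares of all genes called differed between regions and exposures. In saline-reared mice 2.55% of all genes tested passed in the hippocampus, 0.246% in the hypothalamus, 0% in the PFC and 0.0128% in the striatum. In morphine-reared mice the shares were 0.467% in the hippocampus, 6.27% in the hypothalamus, 0.0184% in the PFC and 1.39% in the striatum. In the hypothalamus of morphine-reared mice all 10 members had fold changes above 0, with a median of 0.39 on the log2 scale against 0.003 over all genes. Without MOR-LPS replicate 16-2 fewer were above 0 and the median was lower, as given below. In saline-reared mice 8 of 10 were above 0 in that region (median 0.29, all genes 0.07), and 3 of 10 without SAL-LPS replicate 1-2. In the PFC 7 of 10 were below 0 in either exposure, with medians of -0.38 in saline-reared and -0.39 in morphine-reared mice against -0.01 and 0.06 over all genes.

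**Figure D2:**
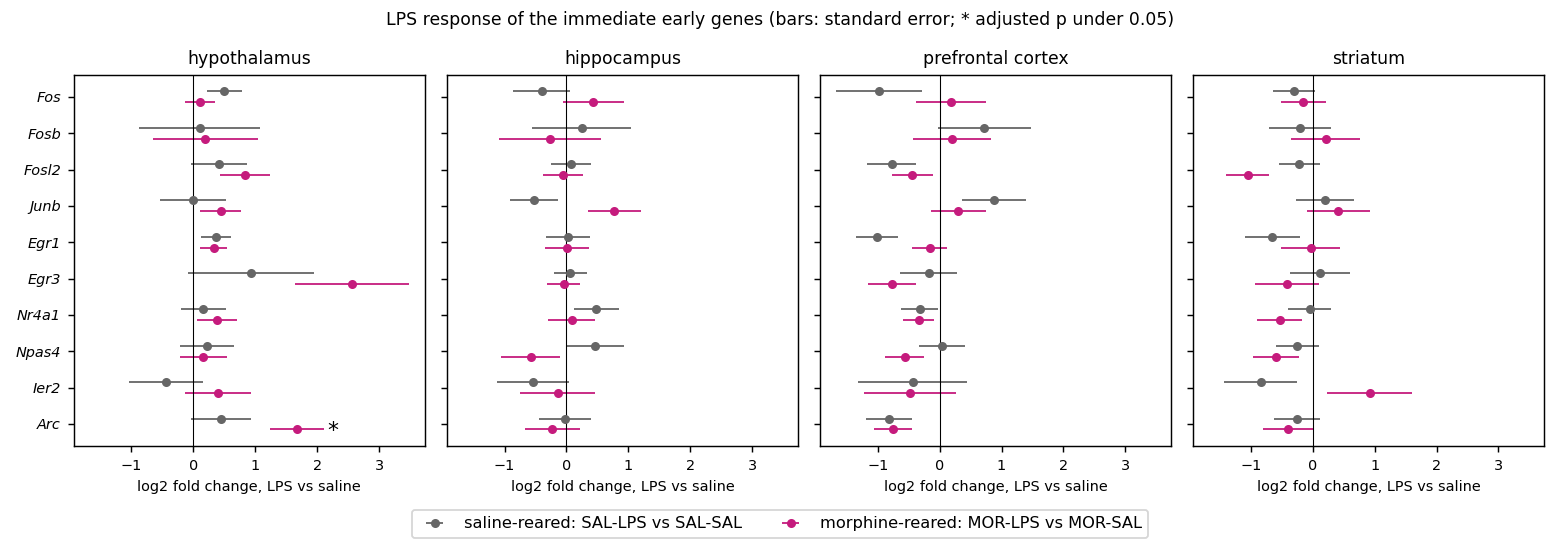
Log2 fold change of each immediate early gene 2 h after LPS in saline-reared (grey, SAL-LPS against SAL-SAL) and morphine-reared mice (magenta, MOR-LPS against MOR-SAL), with bars of 1 standard error, in 4 regions. Only Arc in the hypothalamus of morphine-reared mice (asterisk) has an adjusted p under 0.05, at 0.0142.

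In the hypothalamus, levels here and in the following paragraphs are CPM normalized within the region. Arc had a lowest, median and highest value of 9.12, 19.3 and 38.2 normalized CPM in MOR-SAL and of 11.2, 25.5 and 419 in MOR-LPS. In saline-reared mice they were 0, 27.0 and 67.0 without LPS and 0, 15.8 and 226 with it. Both values of 0 are from libraries of low depth, SAL-SAL 4-3 and SAL-LPS 1-4, and in the latter 3 counts equal 391 CPM. The groups overlapped in both exposures: 4 of 14 MOR-LPS libraries lay above all MOR-SAL libraries, and none below. One of them, MOR-LPS replicate 16-2, lay far above the rest at 419 normalized CPM (1389 counts).

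That library was high for the other members too. All 10 members lay above the value fitted for its condition and sex, with Nr4a1 at 266 normalized CPM, Egr1 at 126, Fosl2 at 107, Npas4 at 84.5, Junb at 78.5, Fos at 58.2 and Egr3 at 38.6. In the same library the summed level of 5 cortical neuron markers was 282 CPM, the highest of the MOR-LPS hypothalamus group, whose range was 59.2 to 282 with a median of 108, and that of 9 hypothalamic neuron markers was 3.95 CPM, where the group ran from 0.722 to 345 with a median of 32.5. Their part in the result was not tested. SAL-LPS replicate 1-2 was alike in the members, with Arc at 226, Egr1 at 212, Nr4a1 at 170 and Fos at 69.8 normalized CPM, and stood at 118 CPM for the cortical list, where the SAL-LPS group ran from 19.98 to 130 with a median of 87.6, and at 26.8 CPM for the hypothalamic list, where the median was 61.4. Both libraries thus lay above the median of their group for the cortical and below it for the hypothalamic markers.

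The Arc call rested on that library. Without MOR-LPS replicate 16-2, the log2 fold change of Arc in morphine-reared mice was 0.63 ± 0.358 (adjusted p = 0.329, edgeR's quasi-likelihood test), 7 of 10 members stayed above 0, and the median over members was 0.15. Without all animals of set 16 it was 0.85 (adjusted p = 0.225). With the set as a replicate block it was 1.22 ± 0.369 (adjusted p = 0.0723), and 6 of 10 members were above 0. The fits without replicate 16-2 or 1-2 were chosen after the data were seen. Without SAL-LPS replicate 1-2, the difference in the Arc response between morphine-reared and saline-reared mice, 1.23 ± 0.649 with all libraries (adjusted p = 0.361), became 1.99 ± 0.597 (adjusted p = 0.0415). Without both libraries it was 0.97 ± 0.48 (adjusted p = 0.311), and without replicate 16-2 alone 0.25 ± 0.525 (adjusted p = 0.947).

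**Figure D3:**
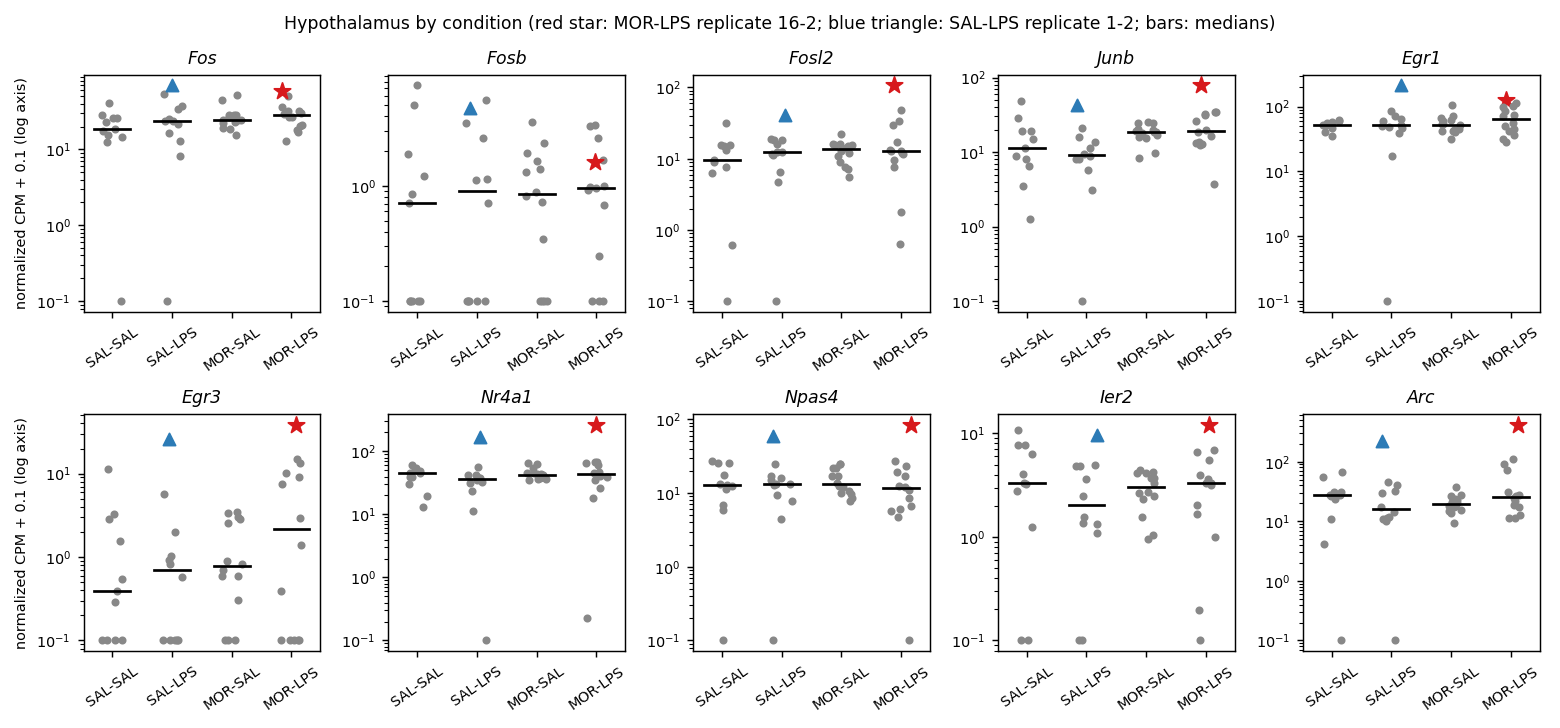
Normalized CPM of each immediate early gene in the hypothalamus by condition (n = 11, 12, 14 and 14 libraries), on a log axis after adding 0.1, with bars at the medians. The red star is MOR-LPS replicate 16-2, at 419 for Arc, and the blue triangle SAL-LPS replicate 1-2, at 226 for Arc: each is the highest library of its group for 9 of the 10 genes, all but Fosb.

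Egr3 had a larger fitted change than Arc in the hypothalamus of morphine-reared mice, with a larger error. Its lowest, median and highest values were 0, 0.671 and 3.35 normalized CPM in MOR-SAL and 0, 2.08 and 38.6 in MOR-LPS, and 6 of 14 MOR-LPS libraries lay above every MOR-SAL library. The log2 fold change was 2.56 ± 0.92 with an adjusted p of 0.0773. In saline-reared mice it was 0.93, on medians of 0.291 without LPS and 0.598 with it. The value of 38.6 is that of MOR-LPS replicate 16-2, where the group mean was 7.00. The highest SAL-LPS value, 26.2, is that of replicate 1-2, where the group mean was 3.05. Outside MOR-LPS the medians of Egr3 were near the limit that 3 counts give in a hypothalamic library of median depth, 0.541 CPM. Such limits cover counting error only.

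Among the AP-1 subunits no LPS response passed in any region. Fos in the hypothalamus had medians of 18.4 normalized CPM in SAL-SAL, 23.4 in SAL-LPS, 24.2 in MOR-SAL and 28.1 in MOR-LPS, and in the hippocampus 10.8, 10.7, 11.5 and 14.3. In the PFC it had medians of 15.0, 12.0, 8.49 and 11.6, and in the striatum 5.85, 6.86, 6.07 and 6.43. These medians moved by less than the spread within a group, which in the hypothalamic MOR-LPS mice ran from 12.9 to 58.2.

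Fosl2 had 1 of the smaller adjusted p-values, in the striatum. There its lowest, median and highest values were 10.8, 15.8 and 30.4 normalized CPM in MOR-SAL and 3.799, 8.04 and 20.8 in MOR-LPS, so that LPS-injected animals were lower on the whole but overlapped. The log2 fold change was -1.05 ± 0.345 with an adjusted p of 0.0994. Saline-reared mice had medians of 12.9 without LPS and 13.8 with it in the same region. In the PFC, Fosl2 medians were 30.6 in SAL-SAL, 25.7 in SAL-LPS, 28.8 in MOR-SAL and 14.4 in MOR-LPS, with log2 fold changes of -0.77 in saline-reared and -0.44 in morphine-reared mice, neither past the test.

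Junb in the hippocampus had fold changes of opposite sign in the exposures. Its median there was 26.0 normalized CPM in SAL-SAL and 22.1 in SAL-LPS, and 12.48 in MOR-SAL and 33.0 in MOR-LPS. Ranges were wide, from 0 to 83.4 in MOR-SAL and from 8.35 to 110 in MOR-LPS, and overlapped. The difference between the exposures in the LPS response was 1.29 ± 0.584 with an adjusted p of 0.308. Fosb had medians of 0.414 to 0.743 normalized CPM in the 4 hippocampal groups and of 1.98 to 4.96 in those of the PFC.

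Egr1 in the PFC had the smallest adjusted p of the saline-reared LPS response. Its lowest, median and highest values were 94.7, 209 and 530 normalized CPM in SAL-SAL and 65.8, 123 and 254 in SAL-LPS. The morphine-reared groups were near the latter, at 46.2, 119 and 228 in MOR-SAL and 15.7, 110.2 and 285 in MOR-LPS. SAL-SAL was thus the high group and the other groups lay together, but all overlapped. The log2 fold change after LPS in saline-reared mice was -1.01 ± 0.341 (unadjusted p = 0.00439, adjusted p = 0.162, edgeR), and that of morphine rearing without LPS was -0.90 ± 0.323 (adjusted p = 0.212). The SAL-SAL libraries are in both of these comparisons.

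Nr4a1 and Arc in the PFC had their highest medians in SAL-SAL too. Nr4a1 had medians of 195 normalized CPM in SAL-SAL, 124 in SAL-LPS, 126 in MOR-SAL and 96.9 in MOR-LPS. Arc had medians of 117 in SAL-SAL, 62.5 in SAL-LPS, 102 in MOR-SAL and 65.4 in MOR-LPS. Arc was lower after LPS in both exposures, by a log2 fold change of -0.82 ± 0.368 in saline-reared and -0.76 ± 0.307 in morphine-reared mice, with adjusted p-values of 0.306 and 0.221, and neither passed. Npas4 had medians of 43.0, 51.4, 39.1 and 28.2 in the same order of groups in the PFC, and Ier2 of 6.78, 2.59, 3.83 and 2.32.

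In the striatum, the lowest medians of several members were in MOR-LPS. Arc had medians of 39.1, 36.95, 35.8 and 20.1 normalized CPM in SAL-SAL, SAL-LPS, MOR-SAL and MOR-LPS, Nr4a1 of 57.9, 34.9, 45.9 and 26.5, and Npas4 of 15.8, 13.8, 17.7 and 11.0. None of these differences passed the test, and the MOR-LPS libraries of Arc, from 1.77 to 58.9, covered most of the range of the other groups.

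Morphine rearing alone changed no member past the threshold. Without LPS, 0 of 40 tests passed and 1 had an unadjusted p under 0.05, against 0% of all genes called in the hippocampus, 1.44% in the hypothalamus, 0% in the PFC and 0% in the striatum. After LPS, 0 of 40 passed and 3 had an unadjusted p under 0.05, against 2.73% in the hippocampus, 1.03% in the hypothalamus, 0.0046% in the PFC and 0% in the striatum. Those 3 were Junb, higher in MOR-LPS than in SAL-LPS by 0.86 ± 0.385 in the hippocampus and 0.92 ± 0.358 in the hypothalamus (adjusted p = 0.217 and 0.176), and Nr4a1, at -0.58 ± 0.267 in the PFC (adjusted p = 0.318). DESeq2 also called 0 members in both comparisons.

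The LPS responses of the exposures differed for no member with all libraries. Of 40 tests 0 passed and 1, Junb in the hippocampus, had an unadjusted p under 0.05, by edgeR, and DESeq2 called 0. The share of all genes called was 2.35% in the hippocampus, 3.8% in the hypothalamus, 1.78% in the PFC and 0.00854% in the striatum. Over the 5 comparisons of conditions together, 1 of 200 tests of a member passed and 12 had an unadjusted p under 0.05, with 90 fold changes above 0 and 110 below. Over all genes in the same comparisons 14.2% of tests had an unadjusted p under 0.05, against 6% for the members. That share is over genes with a total count above 10. A stricter filter on low counts left fewer calls after LPS in the hippocampus, as given below.

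The sign of the difference between females and males in the LPS response varied with the region, and no member passed the test. The difference, female minus male, was below 0 for 9 of 10 members in the hippocampus, with a median of -1.33 on the log2 scale against -0.03 over all genes tested. It was above 0 for 8 of 10 in the PFC (median 0.68, all genes -0.01) and for 10 of 10 in the striatum (median 0.97, all genes 0.05), and for 4 of 10 in the hypothalamus (median -0.31, all genes 0.06). The counts were the same in each region when libraries were scaled by DESeq2's size factors or by total counts alone. In the PFC, females alone had 5 of 10 members above 0 after LPS in saline-reared mice (median 0.03), and males alone 2 of 10 (median -0.86). Of 40 tests 0 passed and 14 had an unadjusted p under 0.05, 7 of them in the hippocampus, by edgeR's quasi-likelihood test, and DESeq2 also called 0. Over all genes 10.2% of these tests had an unadjusted p under 0.05, and 12.2% in the hippocampus. The share of all genes called was 0.707% in the hippocampus, 0.152% in the hypothalamus, 0% in the PFC and 0% in the striatum. Since 17 of 18 sets held 1 sex, animals of 1 set also share a sex. With the set as a replicate block, an alternative chosen after the data were seen, 0 of 40 tests passed and 11 had an unadjusted p under 0.05 (edgeR), 6 of them in the PFC and 3 in the hippocampus. The counts above 0 were then 1 of 10 in the hippocampus (median -0.64), 9 in the PFC (median 1.15), 10 in the striatum (median 0.81) and 4 in the hypothalamus (median -0.56).

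Junb in the hippocampus had the smallest adjusted p among them. With both exposures pooled, its lowest, median and highest values in females were 3.90, 34.0 and 83.4 normalized CPM after saline (n = 12) and 8.35, 21.0 and 48.4 after LPS (n = 16). In males they were 0, 13.4 and 118 after saline (n = 13) and 9.33, 31.0 and 110 after LPS (n = 14). The median was lower after LPS in females and higher in males, and the ranges overlapped. The difference between the responses was -1.67 ± 0.462 (adjusted p = 0.064), and without the 4 hippocampal libraries that went against the labelled sex it was -1.76 ± 0.437 (adjusted p = 0.0466). With the set as a replicate block it was -1.29 ± 0.389 (adjusted p = 0.433).

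Fos and Ier2 showed the same crossing of medians in the hippocampus. Fos went from 16.2 to 9.93 normalized CPM in females and from 6.63 to 18.8 in males, and Ier2 from 5.92 to 2.64 and from 2.03 to 6.08. In the PFC the crossing ran the other way for Fos, from 6.73 to 12.8 in females and from 16.1 to 5.98 in males. Arc in the PFC went from 85.1 to 71.7 in females and from 181 to 56.2 in males. In the striatum, Nr4a1 went from 29.1 to 31.8 in females and from 63.1 to 27.3 in males. In each of these cases the medians of the sexes lay apart in the saline-injected animals already, which was not tested.

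**Figure D4:**
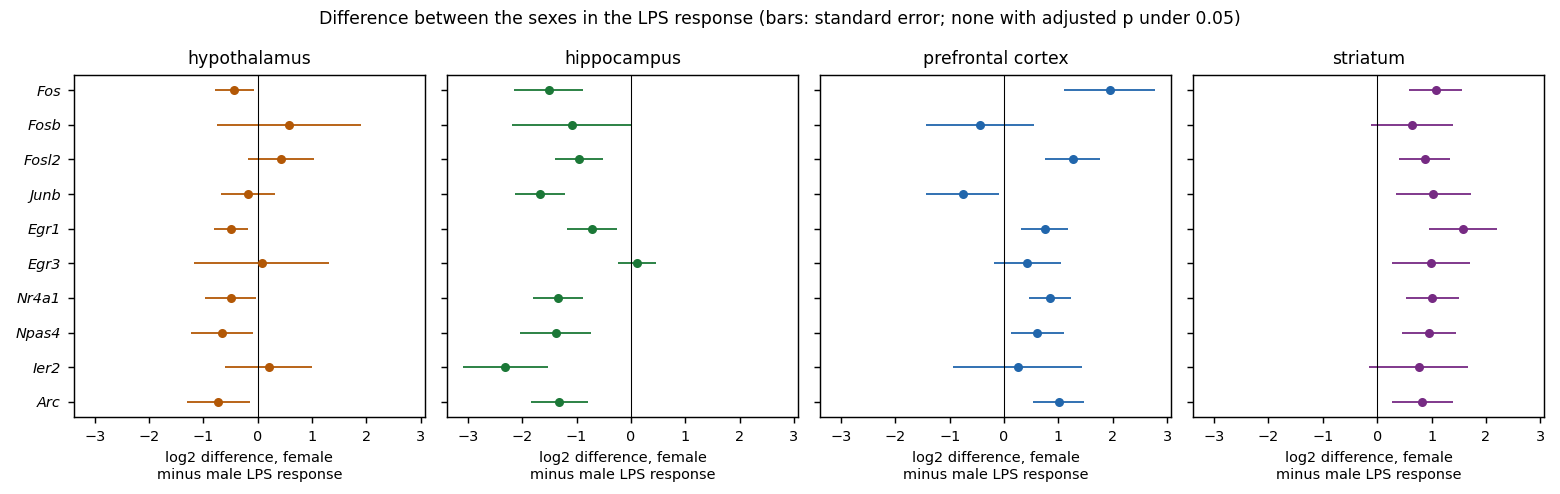
Difference between the sexes in the log2 LPS response of each immediate early gene (female minus male, both exposures together), with bars of 1 standard error, in 4 regions. The points lie below 0 for 9 of 10 genes in the hippocampus and above 0 for 10 of 10 in the striatum, and none has an adjusted p under 0.05.

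The LPS responses of the regions were compared in 1 fit over all libraries, as the mean of both exposures. Arc and Egr3 responded more in the hypothalamus than in the PFC, by 1.87 ± 0.447 (adjusted p = 0.00628) and 2.21 ± 0.609 (adjusted p = 0.0236) on the log2 scale, where 2.8% of all genes passed. Without the hypothalamic library MOR-LPS 16-2, and without it and SAL-LPS 1-2, 0 members passed. With the animal as a replicate block, over the 35 animals with both regions, the differences were 1.05 ± 0.358 for Arc and 0.45 ± 0.869 for Egr3, and neither passed (adjusted p = 1 for both, edgeR). For the hypothalamus against the hippocampus 0 passed and 2 had an unadjusted p under 0.05 (background 2.8%), and against the striatum 0 and 3 (1.41%). For the hippocampus against the PFC (1.98%), the hippocampus against the striatum (0.994%) and the PFC against the striatum (0.9%), 0 members passed and 0 had an unadjusted p under 0.05, by edgeR, the only tool run on this fit.

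Within a condition, the immediate early genes varied together from library to library. After the fitted condition and sex were taken out, the Pearson r between 2 members, over libraries, had a median of 0.524 in the striatum, 0.52 in the hippocampus, 0.442 in the hypothalamus and 0.287 in the PFC, over 45 pairs each. It was above 0 for all 45 pairs in the hypothalamus and the hippocampus, for 41 in the striatum and for 39 in the PFC. These correlations are descriptions over libraries that share depth and dissection, and no p was computed. Genes outside the list also tended to be above 0: their mean r with the members had a median of 0.138 over 12987 genes. Without libraries of low depth the median in the hypothalamus was 0.295, and in the hippocampus 0.504.

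The 4 pairs with the highest mean r over the regions joined Arc, Nr4a1, Npas4 and Egr1, followed by Fosl2 with Npas4 (0.659). Nr4a1 and Arc had the highest mean r over the 4 regions, 0.714, with 0.922 in the hippocampus, and Nr4a1 and Npas4 had 0.707. Egr3 and Arc reached 0.86 in the striatum and 0.715 in the PFC, where they were the closest pair. Fos and Arc were the closest pair of the hypothalamus at 0.848, which became 0.662 without libraries of low depth. The least alike were Fos and Egr3, with a mean r of 0.176. Between AP-1 subunits the mean r was 0.457 for Fosb with Junb, 0.43 for Fos with Junb and 0.236 for Fosl2 with Junb, whose r was -0.16 in the PFC.

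**Figure D5:**
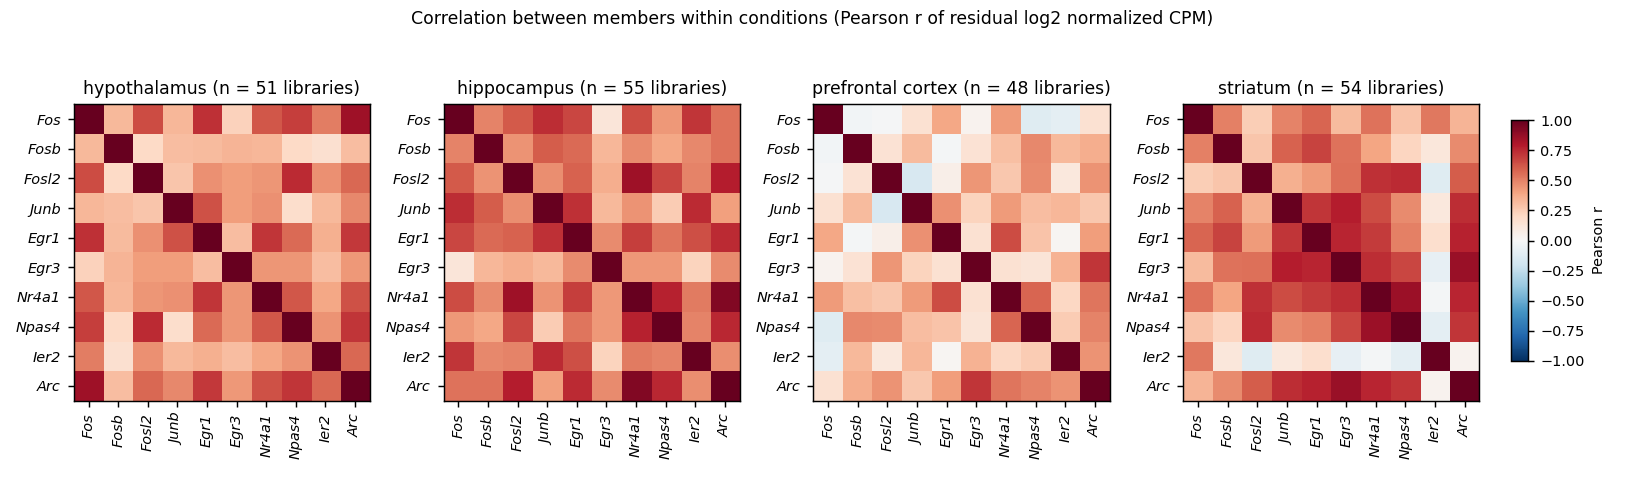
Pearson r between immediate early genes over libraries, after condition and sex were taken out, in the hypothalamus (n = 51), hippocampus (n = 55), PFC (n = 48) and striatum (n = 54), from -1 (blue) to 1 (red). Most cells are red: the median r is 0.524 in the striatum and 0.287 in the PFC, where 39 of 45 pairs lie above 0.

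Averaged over the 10 members, the residual of a library on the log2 scale gives how far it stood from its condition. It ran from -4.55 to 2.58 in the hypothalamus, -4.39 to 1.62 in the hippocampus, -1.77 to 1.24 in the PFC and -1.92 to 1.35 in the striatum. All 10 members stood above their fitted values in 9 hippocampal, 5 striatal, 3 hypothalamic and 1 PFC libraries, and all 10 below in 4, 4, 1 and 2. The lowest hypothalamic library, SAL-LPS 1-4, was also the shallowest at 7673 counts, and the lowest hippocampal one, MOR-LPS 12-2, was of low depth at 2026248. In the hypothalamus SAL-LPS 1-2 and MOR-LPS 16-2, both high for the members, held 4587332 and 3036876 counts, where the median of the region was 5543589. The part of depth in these residuals was not tested.

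The genes outside the list that varied most like the members were Ephb6, Tyro3, Lmo4, Egr4, Acbd4, Rnf34, Igfbp6, Poldip2, Ndel1 and Cdc42ep3. Likeness was the mean r with the members, averaged over the regions, and ran from 0.481 for Ephb6 to 0.44 for Cdc42ep3, where the median over 12987 genes was 0.138. Of these 10 only Egr4, the relative of Egr1, is on the list of other rapid response genes. Without libraries of low depth, 5 of the 10 were still among the 10 most alike, and Tyro3 came out on top at 0.439.

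The same animals gave tissue from several regions, so each member was compared between regions over animals. Of 60 relations, 10 members in 6 pairs of regions, 1 passed an adjusted p of 0.05 in a permutation test with 100000 resamples. Arc residuals in the PFC and the striatum had a Pearson r of 0.576 (adjusted permutation p = 0.0222) and a Spearman rho of 0.624 (adjusted permutation p = 0.0066) over 35 animals. Leaving out the 2 animals farthest from the median gave an r of 0.523. Over 15 sets in place of animals the r was 0.86 (adjusted permutation p = 0.0024) and the rho 0.771 (adjusted permutation p = 0.0678), so that only the first passed. Without libraries of low depth, r was 0.514 with an adjusted permutation p of 0.178, and no relation passed. Egr1 and Nr4a1 in the same pair of regions had r of 0.507 and 0.443 (adjusted permutation p = 0.0534 and 0.146).

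Other genes of the pathway were read from 3 lists: 26 other rapid response genes, 18 late response genes and 20 upstream signalling genes. In the hypothalamus of morphine-reared mice after LPS, where 6.27% of all genes were called, 3 of 26 rapid response genes passed, all higher, with a median over the list of 0.74 against 0.003 over all genes. They were Klf2, Zfp36 and Egr4. Klf2, a zinc finger factor that responds to blood flow and inflammation, was at a median of 0 and at most 0.734 normalized CPM in MOR-SAL and at a median of 1.97 and at most 7.39 in MOR-LPS (adjusted p = 0.00705, edgeR). Zfp36, which speeds the decay of inflammatory mRNA, had medians of 0.295 and 1.90 (log2 2.97 ± 0.856, adjusted p = 0.0265). Egr4 had medians of 0.537 and 3.21 (2.49 ± 0.809, adjusted p = 0.0491), and without MOR-LPS replicate 16-2 its adjusted p was 0.139. Klf2 passed with the set as a replicate block (adjusted p = 0.0164) and Zfp36 and Egr4 did not (0.291 and 0.145), and with a stricter filter on low counts Egr4 did not (0.07).

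Of the late response genes, 2 of 18 passed in the same comparison, both higher, against the same 6.27% of all genes. Cdkn1a, an inhibitor of the cell cycle, had a lowest, median and highest value of 0.144, 5.81 and 8.88 normalized CPM in MOR-SAL and 4.95, 11.1 and 132 in MOR-LPS (log2 2.69 ± 0.449, adjusted p = 0.000183). Rasgrp1, an activator of Ras, had medians of 44.1 and 68.6 (1.49 ± 0.442, adjusted p = 0.0304). Both remained called without replicate 16-2 (adjusted p = 0.000182 and 0.0441). Cdkn1a passed with the set as a replicate block (adjusted p = 0.00398) and Rasgrp1 did not (0.177).

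Of the 20 upstream signalling genes, 2 were higher and 1 lower there, against the same share of all genes. Camk2a, the calcium-dependent kinase of excitatory synapses, had medians of 304 and 426 (1.25 ± 0.265, adjusted p = 0.00337), and Mef2c, an activity-dependent transcription factor, 53.8 and 68.7 (1.18 ± 0.339, adjusted p = 0.0255, and 0.124 without replicate 16-2). Elk1, a cofactor of serum response factor, fell, from a median of 68.5 to 44.9 normalized CPM (-0.73 ± 0.178, adjusted p = 0.0105). Camk2a and Elk1 passed with the set as a replicate block (adjusted p = 0.0219 and 0.0184) and Mef2c did not (0.283). The medians of several marker lists differed between the same groups. The sum of 6 astrocyte markers, cells that the NeuN sort should leave out, had a lowest, median and highest value of 109.5, 215 and 281 CPM in MOR-SAL and 155, 414 and 1067 CPM in MOR-LPS. That of 7 oligodendrocyte markers was 76.3, 350 and 689.7 CPM in MOR-SAL and 216, 536 and 6820 CPM in MOR-LPS. The sum of 9 hypothalamic neuron markers had a median of 108 CPM in MOR-SAL (6.26 to 238) and 32.5 CPM in MOR-LPS (0.722 to 345), and that of 6 markers of striatal medium spiny neurons 194 CPM (89.9 to 438) and 91.1 CPM (59.2 to 162). No marker of these lists was at 0 in every library, and their part in these calls and in the Arc call was not tested.

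In the LPS responses of the other regions the lists held 4 more calls. In the hippocampus of saline-reared mice after LPS, where 2.55% of all genes were called, Cdkn1a was higher, at medians of 3.19 and 15.6 normalized CPM (log2 1.92 ± 0.509, adjusted p = 0.0314), and Nrn1, which encodes the neurite growth protein neuritin, was lower, at 45.4 and 29.6 (-0.78 ± 0.212, adjusted p = 0.035). Neither passed with the set as a replicate block (adjusted p = 0.0564 and 0.0706) or with a stricter filter on low counts (0.113 for both). In the striatum of morphine-reared mice, where 1.39% were called, Cdkn1a had medians of 3.30 and 15.7 (2.67 ± 0.606, adjusted p = 0.0198), and Klf2 was at 0 in all 8 MOR-SAL libraries and at a median of 0.241 and at most 1.20 in 18 MOR-LPS libraries (adjusted p = 0.0404), a median under the 0.276 CPM that 3 counts give at the median depth of that region. Neither Cdkn1a nor Klf2 passed there with the set as a replicate block (adjusted p = 0.168 and 0.22). Between the same striatal groups, the median of the summed astrocyte markers was 28.7 CPM in MOR-SAL (24.04 to 129) and 82.2 CPM in MOR-LPS (37.03 to 453). That of the oligodendrocyte markers was 294 CPM (184 to 1269) and 590.4 CPM (167 to 5698), and that of 6 microglia markers 14.9 CPM (11.01 to 43.8) and 32.9 CPM (14.5 to 254). Gfap of the astrocyte list and P2ry12 of the microglia list were at 0 in all these libraries, and the part of these cells in the calls was not tested. None of the 3 lists had a called gene in the PFC after LPS in either exposure, by edgeR, with between 0 and 3 unadjusted p-values under 0.05 a list.

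Between the exposures after LPS, Bdnf, a growth factor that neuronal activity induces, and Camk2a were higher in the hypothalamus of MOR-LPS than of SAL-LPS mice, by 1.26 ± 0.336 and 1.12 ± 0.284 on the log2 scale (adjusted p = 0.0474 and 0.0414, edgeR), where 1.03% of all genes were called. Without MOR-LPS replicate 16-2, Bdnf was at 1.35 ± 0.333 (adjusted p = 0.0463) and Camk2a at 1.02 ± 0.288 (adjusted p = 0.06), which no longer passed. With a stricter filter on low counts neither passed (adjusted p = 0.2 and 0.177). The set could not be fitted as a block for the exposures, in either region, since each set holds 1 exposure. The summed astrocyte markers had a median of 202 CPM in SAL-LPS (85.9 to 612) and 414 CPM in MOR-LPS in that region. The medians in the same order were 372 and 536 CPM for oligodendrocyte, 61.4 and 32.5 CPM for hypothalamic neuron, 144 and 91.1 CPM for medium spiny neuron and 5.61 and 12.01 CPM for choroid plexus markers, and their part was not tested. In the hippocampus, where 2.73% of all genes were called, Nrn1 (0.69 ± 0.203, adjusted p = 0.0489) and Elk1 (0.77 ± 0.204, adjusted p = 0.0323) were higher, and Camk4, a calcium-dependent kinase of the nucleus, was lower (-0.87 ± 0.253, adjusted p = 0.0445). With a stricter filter on low counts none of the 3 passed (adjusted p = 0.185, 0.144 and 0.179), and with DESeq2 Elk1 passed (0.0263) and Nrn1 and Camk4 did not (0.0645 and 0.057). The LPS responses of the exposures differed in the hypothalamus for Rasgrp1 (2.11 ± 0.643, adjusted p = 0.0455) and Camk2a (1.43 ± 0.393, adjusted p = 0.0248), with 3.8% of all genes called. Without replicate 16-2, Rasgrp1 no longer passed (2.07 ± 0.655, adjusted p = 0.0562) and Camk2a did (1.33 ± 0.395, adjusted p = 0.0394). Neither passed with the set as a replicate block (adjusted p = 0.278 and 0.172) or with a stricter filter (0.109 and 0.0644). Between the sexes Zfp36 differed in the hippocampus (female minus male 5.73 ± 1.376, adjusted p = 0.0306, with 0.707% of all genes called), but not with the set as a replicate block (6.50 ± 1.701, adjusted p = 0.325). Without LPS no gene of the 3 lists passed between the exposures.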

How the data were processed

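Nuclear RNA of NeuN-sorted neurons was sequenced by a modified Smart-seq3 protocol. Per the labels and the study's methods, the authors trimmed reads with Trim Galore 0.6.7, aligned them with STAR 2.7.10a to mm10, which also counted reads per gene, checked the counts with HTSeq 0.12.4, and deposited raw counts and CPM per region. The deposited CPM values equal the counts scaled to each library's total. Molecular identifiers are not in these values, and the strand setting is not given in the sources used here. Here, genes with a total count above 10 were fitted per region with edgeR 4.0.16 (R 4.3.3, quasi-likelihood test, TMM scaling, condition and sex), with Benjamini-Hochberg adjustment over all genes at 0.05. Regions were compared in 1 fit over all libraries, in which animals that gave several regions entered as separate. DESeq2 1.42.0 and limma 3.58.1 served as alternatives. The scripts were tested on simulated data. Levels are normalized CPM. Members, lists and the rule for other named genes were chosen with earlier results of these data known. Those genes are the list genes past the test between conditions or sexes, plus the 10 most alike. Region comparisons of the lists are not given.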

Additional observations from a re-analysis of the deposited data

Results flagged for a closer look

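In the check for libraries that stand apart, run for 10 members in the groups of 8 or 10 libraries (30 tests), 4 values lay far from the rest of their group, and chance gives about 1 in 20. Replicate 4-1 of SAL-SAL in the PFC was low for Fosl2, at 9.93 normalized CPM, and for Npas4, at 4.97 normalized CPM, and had the lowest mean of the members in that region. Replicate 11-0 of SAL-LPS in the PFC was high for Fosb, at 20.4 normalized CPM. Replicate 15-0 of MOR-SAL in the striatum was listed at 0 for Junb.

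The LPS responses of the hypothalamus and the PFC differed for Egr3, by 2.207 on the log2 scale, and for Arc, by 1.874, in the test of the difference itself. Neither passed without the hypothalamic libraries with the highest Arc, or with the animal as a replicate block.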

How the results depend on the processing

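Of the counts of called members, 725 alternatives left the value within 1.5 times and 26 did not, and no called value changed sign. For the LPS response in the hypothalamus of morphine-reared mice, 1 member was called with all libraries, 2 without libraries that went against the labelled sex (Egr3 added, log2 3.48, adjusted p = 0.0426), and 0 with females alone, males alone, the set as a replicate block, limma-voom with a correlation within sets, limma on log2(CPM + 1) or log2(CPM + 0.1), without MOR-LPS replicate 16-2, and without both libraries of highest Arc. Leaving out each set in turn gave 0 (without set 16) to 1 there, and 0 to 1 (without set 1) for the difference between the exposures in the hypothalamus, which was also 1 without SAL-LPS replicate 1-2. Males alone gave 1 call, Junb, in the hippocampus both for the LPS response of morphine-reared mice and for the exposure difference. Without libraries that went against the labelled sex, 1 member, Junb, was called between the sexes in the hippocampus. Between regions in SAL-SAL, total counts as the only scaling gave 2 in place of 4 for the hippocampus against the PFC, and the hypothalamus against the striatum had 4 with those regions alone and 1 without low-depth libraries, in place of 2. For the LPS responses of regions, the hypothalamus against the PFC had 1 with those regions alone and 0 without MOR-LPS replicate 16-2 or both libraries of highest Arc, in place of 2, and without low-depth libraries there was 1 call against the hippocampus and 2 against the striatum, in place of 0. No relation between regions passed without low-depth libraries (0 in place of 1). The cause was not tested. Exposure effects could not be fitted with the block, since each set holds 1 exposure. With limma-voom and a correlation within sets, 174 genes were called between the exposures after LPS in the hypothalamus and 98 in the hippocampus. The replicate numbers pair libraries of the same animal between regions. With the animal as a replicate block, the hippocampus against the striatum had 1 call in place of 2 and the LPS responses of the hypothalamus and the PFC 0 in place of 2, and the other counts stayed within 1.5 times. This block was fitted 1 pair of regions at a time, with the dispersion trend of the design without animals, a choice made after seeing the data, and the planned fit over all 4 regions with the block was not run.

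Of 7490 member fold changes under an alternative, 715 (9.55%) had the other sign. The counts of all genes called moved further: 1809 in the hypothalamus of morphine-reared mice became 1269 with DESeq2, 689 with a stricter filter on low counts, 362 with the set as a replicate block and 344 with limma on log2(CPM + 1), over a range of 170 to 2867. The range was 0 to 1207 around 563 in the hippocampus of saline-reared mice, 0 to 202 around 103 in that of morphine-reared mice, 22 to 749 around 325 in the striatum of morphine-reared mice, and 0 to 128 around 71 in the hypothalamus of saline-reared mice. For the difference of morphine-reared from saline-reared mice in their LPS response it was 2 to 1305 around 1098 in the hypothalamus, 0 to 629 around 519 in the hippocampus and 0 to 539 around 387 in the PFC, where the stricter filter gave 132, 0 and 0. In the striatum the range of that difference was 0 to 236 around 2, with 130 by DESeq2 and 236 with total counts as the only scaling. For the exposures after LPS it was 1 to 1423 around 602 in the hippocampus and 2 to 740 around 298 in the hypothalamus, and without LPS 11 to 916 around 416 in the hypothalamus. The stricter filter gave 1 and 6 for the exposures after LPS in the hippocampus and the hypothalamus. For the LPS response in the hippocampus it gave 2 in saline-reared and 9 in morphine-reared mice. Total counts as the only scaling moved the median of all genes to as much as 0.29 in an LPS response and 0.35 between regions. Member values at 0 were most frequent in the hypothalamus, at 51, which also held the shallowest library. The parts of depth and of low level in these zeros were not tested.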
